A study of Mus musculus with 4 samples.

Results

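Notch signalling passes between touching cells: a ligand on one cell binds a receptor on its neighbour, the receptor is cleaved, and its intracellular part moves to the nucleus and joins the DNA-binding protein RBPJ and a Mastermind coactivator to switch on targets, chiefly the *Hes* and *Hey* repressors. In arterial endothelial cells (EC) this pathway is known for setting arterial identity and for quiescence, and in vascular smooth muscle cells (VSMC) for differentiation. The 8 genes described here are the nuclear repressors *Hes1*, *Hey1*, *Hey2* and *Heyl*, the feedback inhibitor *Nrarp*, the DNA-binding partner *Rbpj*, the coactivator *Maml2* and the glycosyltransferase *Lfng*, which modifies Notch receptors and so their response to ligands. They were chosen by name, as 8 of 18767 genes in the table, and were read in the 824 of 991 deposited cells that had more than 1200 genes.

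The cells were CD31+ CD45- cells sorted singly from mouse aorta into plate wells and profiled by SORT-seq, which tags each captured transcript with a unique molecular identifier (UMI). The series has 4 libraries: ECKO 1 and ECKO 2 carry the label Jag1 ECKO, and ECWT 1 and ECWT 2 the label Jag1 ECWT. Per the study's methods, the mice of both groups were *Jag1* fl/fl, matched for age and sex. Jag1 ECKO mice carried in addition Cdh5-CreERT2, a tamoxifen-induced recombinase driven by an endothelial promoter, and the control mice lacked Cre. Per the same methods, in a statement on all mice and not on these libraries, they were males on a C57BL/6J background, aged 1.5 to 3 months, and received 2 mg of tamoxifen per day for 5 days. How many animals went into a library is not stated in the sources used here. A p-value between labels thus measures the spread between these libraries, which may be technical. A p-value between groups of cells of the same libraries measures how far their difference varied from library to library, which may be technical too.

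The targeted gene went against the labels. *Jag1*, a Notch ligand, had 161 and 126 counts in the libraries labelled ECKO 1 and ECKO 2 and 28 and 39 in those labelled ECWT 1 and ECWT 2. Scaled to library totals, as CPM, these were 158, 70.8, 32.6 and 26.1. Both libraries labelled ECKO were thus above both labelled ECWT, opposite to a deletion, although reads from the end of a gene do not by themselves show whether a floxed exon is present. For this reason every library is given by its label, and a direction between genotypes means one between labels.

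The libraries held 202, 236, 140 and 246 kept cells in the order above, with 859280 to 1779042 counts each and a median of 4212 to 6517.5 counts per cell. Endothelial markers were high in every library (9471 to 11023 CPM summed over 10 genes) and leukocyte markers were near 0 (2.95 to 9.31 CPM). In the library labelled ECKO 1, summed immediate early genes stood at 2868 CPM against 1321 to 1486 CPM elsewhere. Fibroblast and VSMC markers summed to 4743 and 3566 CPM in the libraries labelled ECKO and to 1943 and 2714 CPM in those labelled ECWT. In 44 cells, 9, 15, 6 and 14 by library, fibroblast and VSMC marker counts exceeded endothelial marker counts. They are called fibroblast/VSMC-marker cells here, and 56 cells lay within 2 times of the division. Well barcodes recur because plates share a set: the 4 libraries used 373 distinct barcodes, 118 to 216 of which were shared by a pair of libraries, and 0 cells had identical columns.

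The promoters of *Hey2* and *Nrarp* are shown because these are the genes, among those with a promoter entry in the RefSeq table used here (5 of the 8), that passed a test in one of the comparisons below. Each is 200 bases on GRCm38.p6, from 250 to 51 bases before the annotated start, read 5′ to 3′ on the gene's strand. *Hey2* is at chr10:30842834-30843033 on the minus strand and *Nrarp* at chr2:25180508-25180707 on the plus strand. Capitals mark TGGGAA or its reverse complement TTCCCA, the core letters that RBPJ binds.
Hey2: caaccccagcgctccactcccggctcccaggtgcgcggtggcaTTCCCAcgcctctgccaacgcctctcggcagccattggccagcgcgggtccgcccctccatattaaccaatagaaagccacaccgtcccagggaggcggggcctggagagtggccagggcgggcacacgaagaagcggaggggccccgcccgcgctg
Nrarp: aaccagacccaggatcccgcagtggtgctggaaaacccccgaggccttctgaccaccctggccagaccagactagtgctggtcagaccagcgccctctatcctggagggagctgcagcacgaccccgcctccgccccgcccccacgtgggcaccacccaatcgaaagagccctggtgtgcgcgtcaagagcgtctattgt

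*Hey2* held 1 match, at position -207 from its start, and these letters were not found in the *Nrarp* window. *Lfng* held 2 (positions -135 and -108). The *Rbpj* entries have overlapping windows: 1 held 2 matches (-149 and -65), and the other held the second of these again (-205 from its start). Of the *Maml2* entries, 1 held 1 match (-145) and the other 0. Across the 32851 promoter windows of the table, 21.6% held 1 or more matches and 2.77% held 2 or more. A match describes letters and is not a binding site.

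In the GENCODE annotation of GRCm38 all 8 genes are protein coding. *Hey2* lies on chromosome 10 from 30832359 to 30842801 (minus strand, 5 exons in its principal transcript), *Hes1* on chromosome 16 from 30064384 to 30067796, *Hey1* on chromosome 3 from 8663359 to 8667256 and *Heyl* on chromosome 4 from 123233556 to 123249875. *Nrarp*, a gene of 1 exon on chromosome 2 from 25180758 to 25183339, overlaps an annotated antisense gene, so its reads depend on strand-aware counting. *Rbpj* (chromosome 5, 53466152 to 53657362), *Lfng* (chromosome 5, 140607320 to 140615545) and *Maml2* (chromosome 9, 13297957 to 13709388) complete the set. *Maml2* overlaps *Phxr4*, a counted gene on the same strand, and *Rbpj* overlaps annotated antisense genes, in both cases outside the last exon. *Rbpj* also has processed copies elsewhere in the genome, with which reads could be shared.

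*Hey2* was the most abundant member. Counts stand for UMI-tagged 3′ ends, so no division by transcript length was made, and capture may still differ between genes. *Hey2* had 167, 144, 219 and 199 CPM in the libraries labelled ECKO 1, ECKO 2, ECWT 1 and ECWT 2. It ranked first of the 8 in all 4 libraries, and its lowest library lay above the highest library of every other member. A *Hey2* count was present in 44.1% of cells labelled ECKO 1 (exact Clopper-Pearson 95% interval 37.1 to 51.2), 52.5% of ECKO 2, 62.1% of ECWT 1 and 63.0% of ECWT 2 (56.6 to 69.1). These intervals cover counting error only.

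A group of 4 genes followed at similar levels. *Rbpj* had 106, 78.1, 69.8 and 84.4 CPM in the order above, and *Maml2* had 60.0, 92.2, 68.7 and 78.4 CPM. *Nrarp* had 98.4, 52.3, 72.2 and 48.9 CPM, and *Hes1* had 71.8, 35.4, 73.3 and 67.7 CPM. The ranges of these genes overlap, and their order changed between libraries, so neighbours among them do not differ beyond the spread.

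The other members were lower, and their order was the same in each library. *Lfng* had 56.1, 31.5, 24.4 and 29.5 CPM and was the sixth. *Heyl* had 20.7, 18.5, 8.15 and 26.1 CPM, a range that overlaps that of *Lfng*. *Hey1*, with 11.8, 6.18, 6.98 and 8.04 CPM, was the lowest and rested on 41 counts in 32 cells. In those terms the *Hey* family spanned from the top to the bottom of the set: 912 counts of *Hey2*, 100 of *Heyl* and 41 of *Hey1*.

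**Figure D1:**
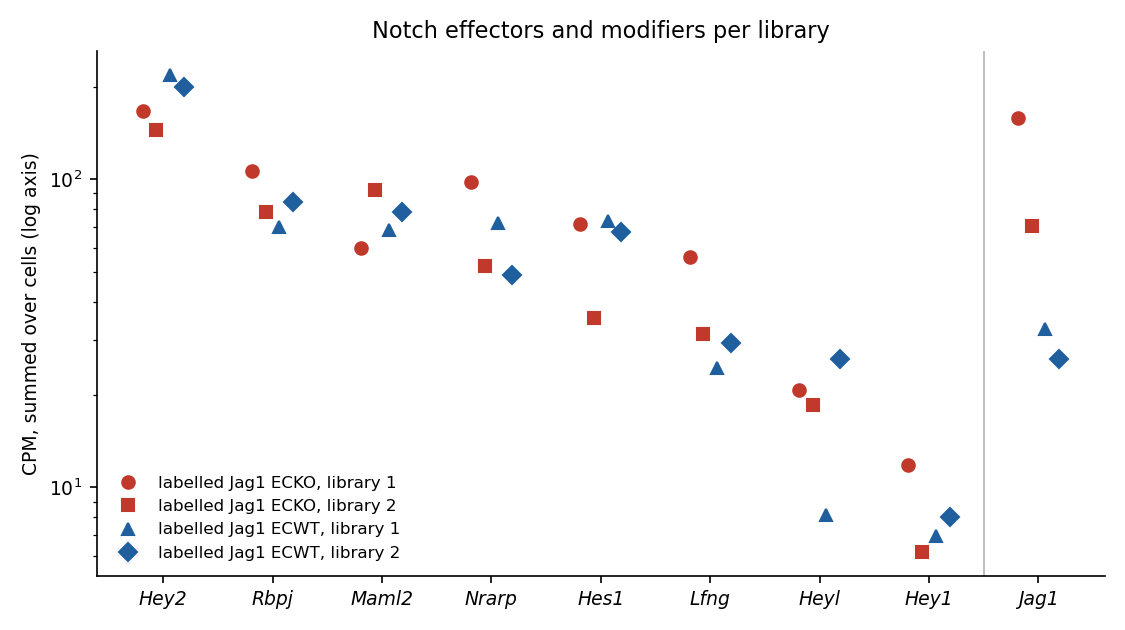
CPM of the 8 members and of *Jag1* (right of the line) on a log axis, with 1 point per library, red where the label is Jag1 ECKO and blue where it is Jag1 ECWT. *Hey2* leads in each library (144 to 219 CPM), *Hey1* is lowest (6.18 to 11.8 CPM), and *Jag1* is higher in both libraries labelled ECKO.

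Cells differed in depth, so shares were also computed with each cell thinned to 2000 counts, which left out 1 cell. The thinned share of cells with a *Hey2* count was 24.6 ± 2.89% in the libraries labelled ECKO (mean ± SD, n = 2) and 32.4 ± 0.150% in those labelled ECWT. For *Hes1* it was 8.60 ± 2.67% and 11.4 ± 1.66%, and for *Lfng* 8.59 ± 2.24% and 5.54 ± 0.408%. *Nrarp* stood at 13.4 ± 4.34% and 11.5 ± 3.46%, *Rbpj* at 13.8 ± 1.04% and 13.0 ± 1.19%, and *Maml2* at 13.9 ± 3.34% and 12.8 ± 1.98%. *Heyl* and *Hey1* were found in under 4% of thinned cells in each library. With all counts, 86.6 to 89.3% of cells per library had a count of 1 or more members, and 56.9 to 73.6% had a count of a *Hes* or *Hey* repressor. Of *Hey2*-positive cells 49.5% carried 1 count of the gene, and of *Lfng*-positive cells 81.0%.

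The first comparison asked whether the members differ between the genotype labels, with the library as the unit. By edgeR's quasi-likelihood test with Benjamini-Hochberg adjustment, 0 of 9730 genes were called (0% of genes tested), with 465 at an unadjusted p below 0.05 (4.78%), and DESeq2 called 2. A permutation test of 2 against 2 libraries cannot go below p = 0.333. *Hey2* CPM did not overlap between the labels: 167 and 144 under ECKO against 219 and 199 under ECWT, a log2 fold change (labelled ECKO over labelled ECWT) of -0.41 (SE 0.17, unadjusted p = 0.0459, adjusted p = 0.900 by edgeR). *Lfng* CPM did not overlap either, with 56.1 and 31.5 against 24.4 and 29.5, a log2 fold change of 0.65 (SE 0.33, adjusted p = 0.900 by edgeR). It was 0.26 without ECKO 1, the high library, and 0.99 (adjusted p = 0.0514) without ECKO 2. On the lipid-handling list described below, ECKO 1 also stood apart in *Fabp4* (631 against 119 to 168 CPM) and *Cd36* (190 against 24.1 to 60.5 CPM), but not in *Gpihbp1* (11.8 against 12.1 to 19.8 CPM), *Lpl* (11.8 against 8.15 to 14.1 CPM) or *Car4* and *Rgcc*, which were under 6 CPM in each library. Their part in the *Lfng* value was not tested. Of all genes tested, 35.4% did not overlap between labels, 16% higher and 19.4% lower in those labelled ECKO, so 2 of 8 members is no more than the background.

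For the other members the libraries of both labels overlapped. *Hes1* had a log2 fold change of -0.43 (SE 0.30), set by the library labelled ECKO 2 at 35.4 CPM, while ECKO 1 at 71.8 CPM lay within the libraries labelled ECWT. Without ECKO 1, whose immediate early genes stood apart, it was -0.92 (adjusted p = 0.0330 by edgeR, 196 genes called), a fit that leaves 1 library under that label and assumes it varies like the other 2. Without ECKO 2 it was -0.00065 (adjusted p = 0.999 by edgeR), so the value rests on that library. *Nrarp* had 0.32 (SE 0.31), *Rbpj* 0.24 (SE 0.23), *Hey1* 0.19 (SE 0.55), *Maml2* 0.09 (SE 0.27) and *Heyl* 0.09 (SE 0.50). *Heyl* turned to -0.25 without the fibroblast/VSMC-marker cells, and *Rbpj* ran from 0.062 to 0.45 with 1 library left out. The median over the members was 0.14 against 0.00 over all genes tested. *Jag1* itself had a log2 fold change of 1.96 (SE 0.37, unadjusted p = 6.44e-04, adjusted p = 0.428 by edgeR). It passed with DESeq2 (adjusted p = 0.0497) and, by edgeR, with no filter on low counts (1.34e-09), without ECKO 1 (1.36, adjusted p = 2.42e-04) and without ECKO 2 (2.42, adjusted p = 8.09e-20). In the other settings run it did not pass, and it was above 0 in every setting run.

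The rest of the pathway was read from lists taken from general knowledge of Notch signalling. In the label comparison 0 of 3 ligands, 3 receptors, 10 receptor-cleavage genes, 4 glycosylation genes, 14 nuclear cofactors, 8 endocytosis and turnover genes and 13 other targets passed. *Notch1*, the leading receptor, had a log2 fold change of -0.02 (SE 0.19) from 280, 199, 249 and 239 CPM, and *Notch4*, the endothelial receptor, 0.10 (SE 0.20) from 105, 113, 95.4 and 110 CPM. *Dll1*, a ligand, had -0.53 (SE 0.50) from 101, 25.3, 106 and 71.0 CPM, with ECKO 2 the low library. *Dll4*, the main endothelial Delta ligand, had 0.02 (SE 0.40). *Jag2* had 13 counts and *Dll3* 1 count over the 4 libraries, too few to test.

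Next, cells with a count of a ligand were set against cells without one in the same library, with the ligand's presence read in thinned cells so that deeper cells were not favoured. For *Jag1* there were 47, 37, 6 and 13 positive cells in the libraries labelled ECKO 1, ECKO 2, ECWT 1 and ECWT 2. Of 8077 genes tested, 30 passed (0.371%) and no member did. *Rbpj* had a log2 fold change, ligand-positive over ligand-negative, of -0.78 (SE 0.33, unadjusted p = 0.0197, adjusted p = 1.00 by edgeR). Its CPM was 82.7 in *Jag1*-positive against 114 in *Jag1*-negative cells in ECKO 1, 33.8 against 85.9 in ECKO 2, 73.8 against 69.9 in ECWT 1 and 62.3 against 85.4 in ECWT 2. It was lower in 3 of 4 libraries, and in ECWT 1 the value rests on 2 counts. The log2 fold change of *Rbpj* ran from -0.99 to -0.48 with 1 library left out and from -1.08 to -0.35 in the other settings.

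*Heyl* had the widest difference in this split, -1.81 (SE 0.81), but on 4 counts in positive cells; it passed the low-count filter only through the negative cells, so no p is given, and it turned to 0.21 when the cells were thinned with another random seed. *Hes1* had -0.15 (SE 0.36), *Hey2* -0.28 (SE 0.25), *Lfng* -0.38 (SE 0.47), *Maml2* -0.25 (SE 0.33) and *Nrarp* 0.22 (SE 0.32). *Hey1* was too low to be tested. The median over the 7 members tested was -0.28 against -0.07 over all genes. A test of whether this difference itself varied with the label passed 0.099% of genes and no member.

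*Dll4* had 32 positive cells, 5, 6, 5 and 16 by library, and *Dll1*, added after its level was seen, had 104 (34, 14, 22 and 34). For *Dll4*, 20 of 7982 genes passed (0.251%), and for *Dll1*, 35 of 7375 (0.475%), with no member among either. The interaction with the label passed 0% of genes for *Dll4*, 0.0814% for *Dll1*, and no member. *Hey1* had 6 counts in *Dll4*-positive cells (2, 2, 0 and 2 by library, 38.8 CPM) and 35 in the others (7.01 CPM). It passed the low-count filter only through the positive cells, and with no filter its log2 fold change was 2.03 (SE 0.95, adjusted p = 0.884 by edgeR). *Maml2* had -1.40 (SE 0.68, adjusted p = 0.658 by edgeR) on 6 counts in *Dll4*-positive cells, 0, 1, 0 and 5 by library. Without ECWT 2, which held 16 of the 32 positive cells, it was -3.09, resting on the 1 count of ECKO 2. With no filter, *Nrarp* had 0.55 (SE 0.51), *Lfng* 0.34 (SE 0.67) and *Hey2* -0.33 (SE 0.39) in the *Dll4* split. *Hes1* had -0.78 (SE 0.65), *Rbpj* -0.93 (SE 0.60) and *Heyl* -1.11 (SE 1.13), and none of these was called. All 9 *Hes1* counts in *Dll4*-positive cells lay in ECWT 2. The median over all genes in that split was -0.29 with the filter, so the members' values are to be read against it. *Lfng* had 0.86 in *Dll1*-positive cells (SE 0.37, unadjusted p = 0.0245, adjusted p = 0.653 by edgeR). Its CPM there was 120, 41.2, 14.2 and 61.0 against 43.6, 30.9, 26.5 and 25.6 in *Dll1*-negative cells, higher in 3 of 4 libraries. *Ccnd1*, a cell cycle regulator on the list of other targets, had 0.94 in *Dll1*-positive cells (SE 0.23, adjusted p = 0.0432 by edgeR), a call lost with no filter on low counts (0.113). Across thinned cells, Spearman correlations of the members with *Jag1*, averaged over libraries, ran from -0.05 (*Rbpj*) to 0.07 (*Hey1*), and *Hey1* with *Dll4* reached 0.14. Values this small in sparse counts rank no gene.

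**Figure D2:**
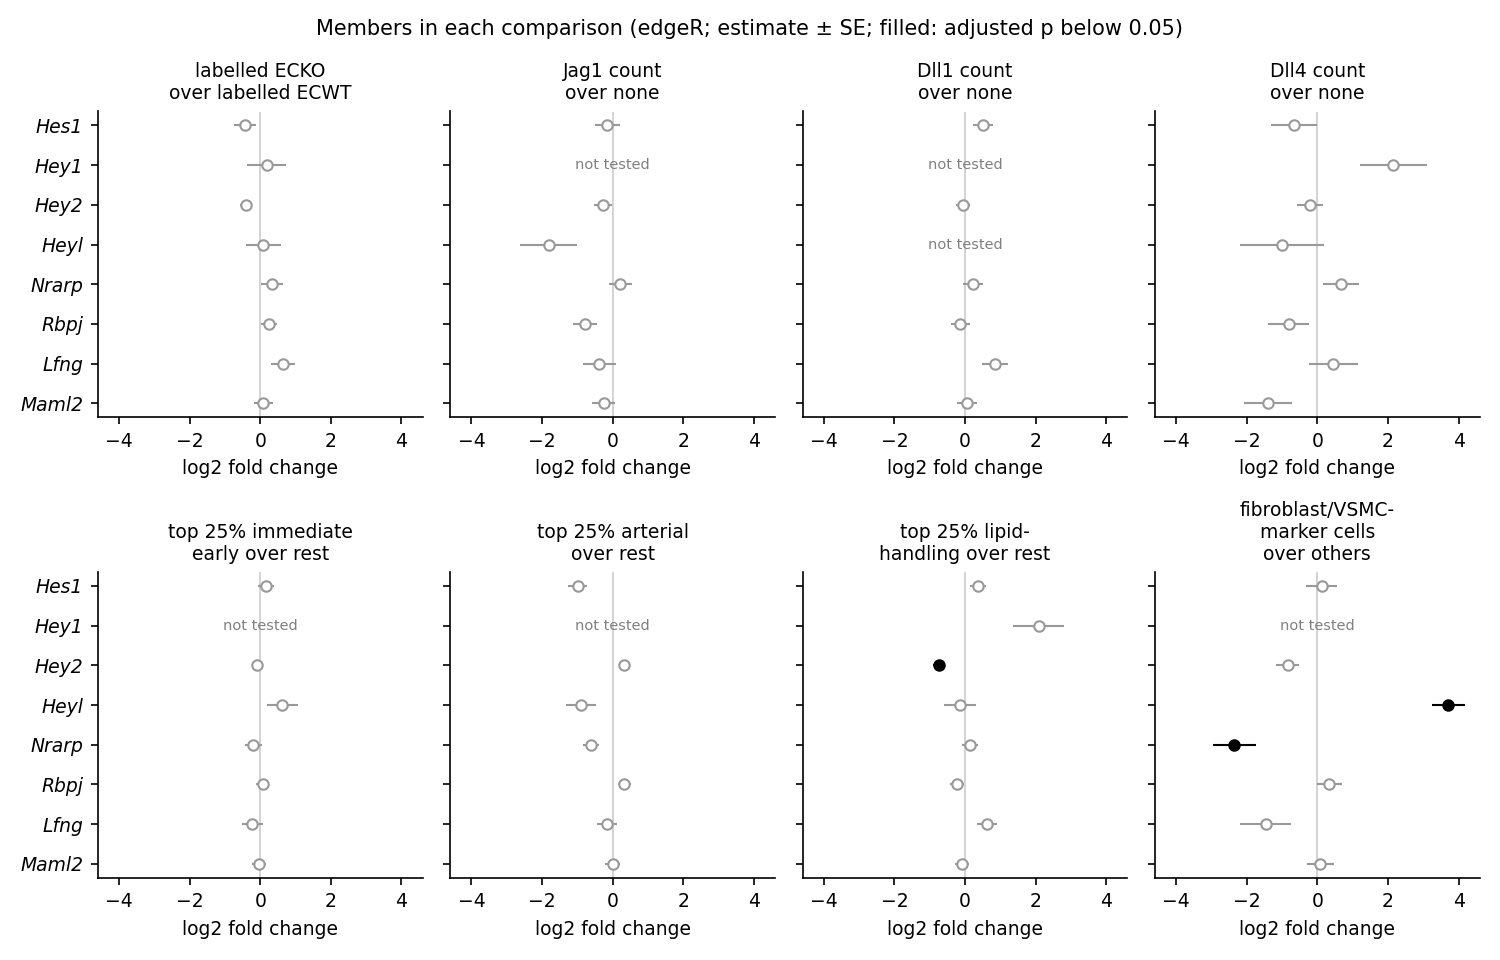
Log2 fold change (edgeR, with SE as bars) of each member in each comparison; filled points passed an adjusted p of 0.05 and "not tested" marks genes too low for the fit. *Hey1* (*Dll4* and lipid-handling) and *Heyl* (*Jag1*, arterial and marker cells) passed the low-count filter only through the cells where they are high. *Nrarp* passed in fibroblast/VSMC-marker cells (-2.35) and *Hey2* in the top 25% for lipid-handling genes (-0.75); the filled *Heyl* point (3.70) is a description for that reason, and no member passed between labels or by ligand.

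Members were then compared between states of the cells, by ranking the thinned cells of each library on a marker list that holds no member and setting the top 25% against the rest. In the top 25% for lipid-handling genes (*Gpihbp1*, *Cd36*, *Fabp4*, *Rgcc*, *Car4*, *Lpl*; *Cd36*, *Fabp4* and *Lpl* serve the release, uptake and carriage of fatty acids, *Gpihbp1* anchors the lipase, and *Rgcc*, a cell cycle regulator, and *Car4*, a carbonic anhydrase, mark capillary cells), *Hey2* fell. These genes were sparse: 84 of the 206 cells in the group had no list count after thinning (10, 26, 17 and 31 by library). Ties among them were settled by the share of list genes in all counts, and 21 of them had no list count at all and filled the group in table order. *Hey2* had 90.0, 91.6, 142 and 161 CPM in the group against 193, 162, 244 and 214 CPM in the other cells of ECKO 1, ECKO 2, ECWT 1 and ECWT 2. It was lower in 4 of 4 libraries, with a log2 fold change of -0.75 (SE 0.16, adjusted p = 0.00983 by edgeR). Its thinned share was 20.0% of cells against 30.9%. Of 8289 genes tested, 172 passed (2.08%), 0.446% of genes being lower. In alternatives added after seeing the data, it was -1.06 (SE 0.23, adjusted p = 0.00625 by edgeR) between the 122 cells with a list count after thinning and all others, and -0.75 (adjusted p = 0.00371) between the 196 cells with any list count and the 627 without. The call was lost with DESeq2 (adjusted p = 0.109), without ECKO 1 (0.0699 by edgeR), without ECKO 2 (0.160), without the library block (0.340) and in the highest 50% of cells, where 290 of 412 cells had no list count after thinning and the log2 fold change was -0.23 (adjusted p = 0.858).

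*Hey1* had the opposite sign in this group. It had 6, 11, 3 and 5 counts there against 6, 0, 3 and 7 in the larger rest, so 25 of its 41 counts fell in 25% of the cells. Its CPM was 23.5, 24.6, 14.2 and 11.5 in them against 7.89, 0, 4.64 and 6.61, higher in 4 of 4 libraries. *Hey1* passed the low-count filter only through the cells where it is high, so the filtered value is a description: a log2 fold change of 2.09 (SE 0.71), which no filtered fit called. With no filter it was 2.02 (SE 0.58, adjusted p = 0.0404 by edgeR), and without ECKO 1 or ECKO 2 it was too low to be tested. Between cells with a list count after thinning and all others it was 1.63 (SE 0.77) and not called, and by any list count it was too low to be tested. *Lfng* had 0.62 (SE 0.29, adjusted p = 0.500), from 110 against 38.1 CPM in ECKO 1, 40.2 against 28.5 in ECKO 2, 28.5 against 23.2 in ECWT 1 and 27.7 against 30.2 in ECWT 2, and it was 0.22 without ECKO 1. *Hes1* had 0.37 (SE 0.22), and *Rbpj*, *Heyl*, *Nrarp* and *Maml2* lay between -0.22 and 0.15. Among other targets, 2 rose, the VEGF receptor genes *Flt1* (1.78, SE 0.24) and *Kdr* (3.73, SE 0.61; it passed the filter only through these cells, and was called with none, adjusted p = 2.95e-12 by edgeR), and 3 fell: the arterial gap junction genes *Gja4* (-0.70, SE 0.13, adjusted p = 0.00424 by edgeR) and *Gja5* (-0.72, SE 0.18), and the arterial ephrin gene *Efnb2* (-0.54, SE 0.13). *Gja5* and *Efnb2* are named after their values were seen.

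*Hes1* was lower in the top 25% for 12 arterial genes, without passing the test. It had 45.1, 33.9, 33.5 and 25.2 CPM there against 80.3, 35.9, 88.9 and 81.0 CPM in the other cells, lower in 4 of 4 libraries but by little in ECKO 2. Its thinned share was lower in 3 of 4: 10.6% of cells against 10.5% in ECKO 1, 5.49% against 7.13% in ECKO 2, 6.77% against 14.5% in ECWT 1 and 4.88% against 12.04% in ECWT 2. The log2 fold change was -0.99 (SE 0.26, adjusted p = 0.0513 by edgeR). It passed when counts were scaled to their total (adjusted p = 0.0480), with no filter on low counts (0.00875) and without ECKO 2 (0.0281), and in no other setting run, where adjusted p went up to 0.653 with DESeq2. In this comparison 123 of 8044 genes passed (1.53%) and no member did. *Hey2* had the opposite sign, 0.33 (SE 0.13, adjusted p = 0.414), with 221, 156, 281 and 222 CPM in the top 25% against 150, 141, 196 and 192 CPM in the rest, higher in 4 of 4 libraries. *Nrarp* had -0.61 (SE 0.22, adjusted p = 0.298) and *Rbpj* 0.32 (SE 0.18), while *Lfng* and *Maml2* lay at -0.17 and 0.00. *Heyl* had -0.90 (SE 0.43) on 15 counts in the top 25% and 85 in the rest, and passed the low-count filter only through the rest. In the highest 50% of cells it was -1.71, the one setting that called it, but with the same low-count filter, so the value is a description. With no filter, the top 25% against the rest gave -0.94 (SE 0.43, adjusted p = 0.690 by edgeR). Of its 100 counts 52 lay in the fibroblast/VSMC-marker cells, where 9 of the 12 arterial genes were lower than in the other cells (*Bmx* at 103 against 483 CPM) and *Unc5b*, *Cxcl12* and *Fbln5* were higher, and without them *Heyl* was too low to be tested here. Of the 8 other targets tested, *Nrp1*, a VEGF and semaphorin coreceptor gene, rose (0.63, SE 0.10) and *Cdkn1a*, a cell cycle inhibitor gene, fell (-1.04, SE 0.25).

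**Figure D3:**
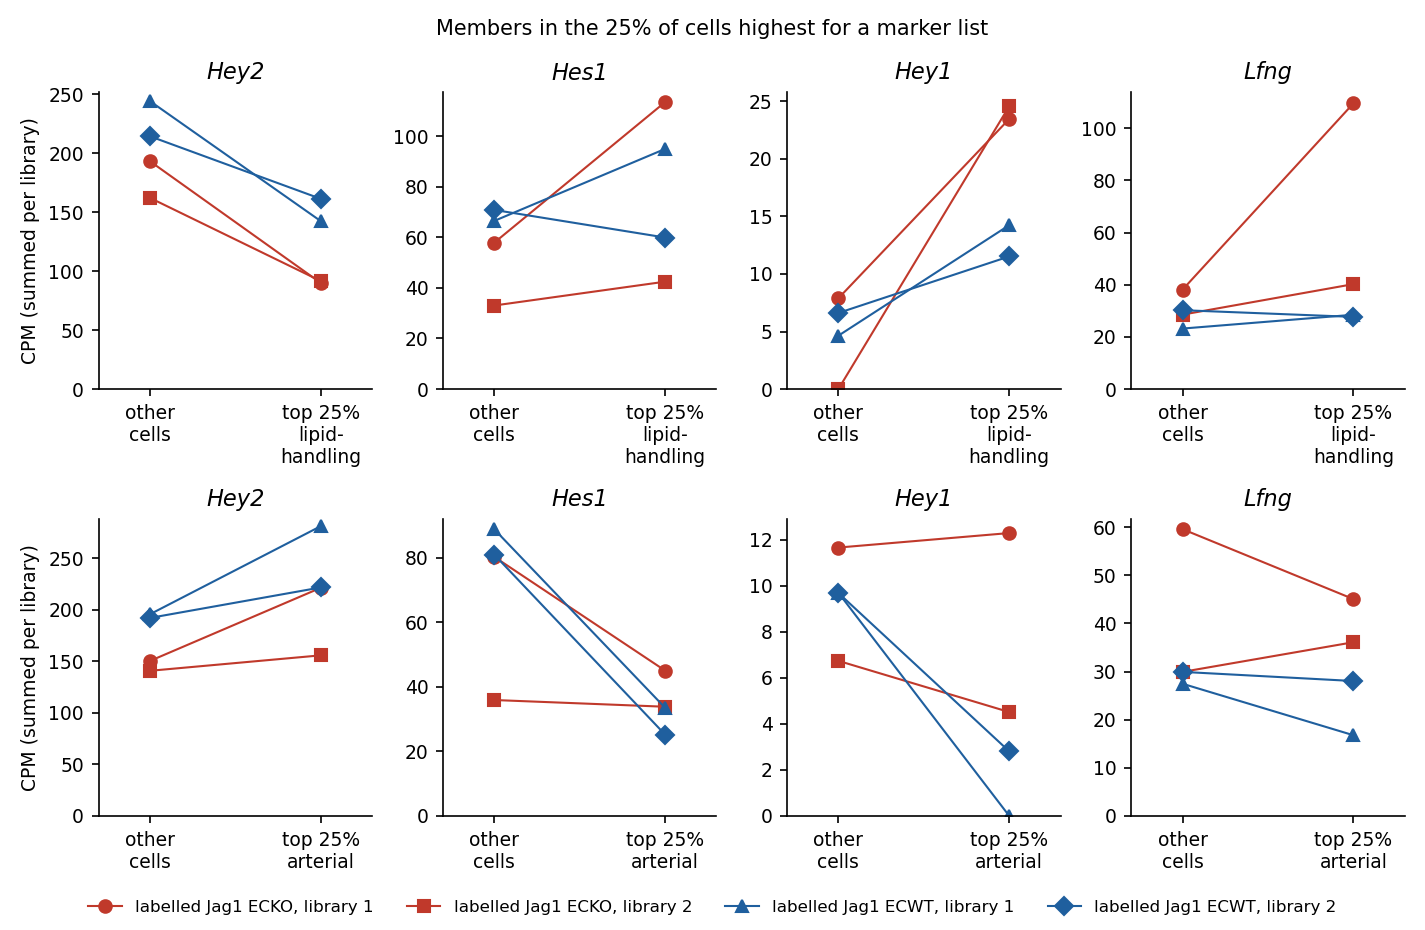
CPM per library of *Hey2*, *Hes1*, *Hey1* and *Lfng* in the other cells and in the top 25% for lipid-handling genes (upper row; 84 of these 206 cells had no list count after thinning) or arterial genes (lower row), with a line joining both values of a library. *Hey2* goes down in 4 of 4 libraries in the upper row and up in 4 of 4 in the lower row, and *Hes1* goes down in 4 of 4 in the lower row.

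In the top 25% for immediate early genes, which respond within minutes to stimuli such as tissue digestion, no member passed, and 53 of 8068 genes did (0.657%). The members lay between -0.23 (*Lfng*, SE 0.30) and 0.62 (*Heyl*, SE 0.44), and *Hey2* was at -0.09 (SE 0.15). Tests of whether a difference by rank varied with the label passed 0.0496% (immediate early), 0.0249% (arterial) and 0.0121% (lipid-handling) of genes and no member.

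The widest differences lay between the 44 fibroblast/VSMC-marker cells and the other 780 cells, a comparison added after the data were seen. *Heyl* had 52 of its 100 counts in these cells, 13, 18, 2 and 19 by library. Its CPM was 185, 103, 43.0 and 217 in them against 8.46, 9.35, 6.15 and 14.2 in the other cells, higher in 4 of 4 libraries. In the fit with the low-count filter 587 of 8399 genes were called (6.99%, 3.86% higher and 3.13% lower). *Heyl* passed that filter only through the marker cells, so its log2 fold change there, 3.70 (SE 0.47), is a description. With no filter, an alternative added after seeing the data, it was 3.59 (SE 0.47, adjusted p = 1.04e-11 by edgeR). Among the 16 cells with more VSMC than fibroblast markers, *Heyl* had 45 counts in 12 cells (258 CPM), and in the 28 with more fibroblast markers 7 counts in 3 cells (34.1 CPM). Its mean level over the 4 libraries was 18.4 ± 7.53 CPM (SD, n = 4) with these cells and 9.55 CPM without them. In the other 780 cells 4.62% had a *Heyl* count, and there its level of 10.1 CPM was near that of *Hey1* (7.34 CPM). *Notch3*, the receptor of smooth muscle and pericytes, had 16 of its 22 counts in the same cells, 10, 1, 1 and 4 by library, so most came from ECKO 1. It too passed the filter only through them, and with no filter it was called (4.67, SE 0.99, adjusted p = 1.97e-04 by edgeR).

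*Nrarp* fell in these cells. It had 1, 1, 1 and 2 counts in them by library, 14.3, 5.71, 21.5 and 22.8 CPM against 105, 57.4, 75.1 and 50.6 CPM in the other cells, lower in 4 of 4 libraries. The log2 fold change was -2.35 (SE 0.60, adjusted p = 0.00726 by edgeR), a call lost with DESeq2 (0.0821), without ECKO 1 (0.0573) and without ECKO 2 (0.188). *Dll1* (-2.07, SE 0.58, adjusted p = 0.0166 by edgeR) and *Notch1* (-1.94, SE 0.39, adjusted p = 4.08e-04 by edgeR) fell as well. So did 2 of 10 receptor-cleavage genes, *Aph1b* (-1.97, SE 0.46) and *Adam10* (-1.15, SE 0.32), and 4 of the 11 other targets tested, *Gja5* (-2.01, SE 0.41), *Sox17* (-1.85, SE 0.39), *Gja4* (-1.26, SE 0.33) and *Efnb2* (-1.02, SE 0.30), while the netrin receptor gene *Unc5b* rose (1.52, SE 0.47). *Efnb2* and *Unc5b* are named after their values were seen.

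Of the members that did not pass, *Hey2* had 99.8, 68.5, 129 and 160 CPM against 172, 153, 224 and 201 CPM, lower in 4 of 4 libraries, with a log2 fold change of -0.84 (SE 0.33, adjusted p = 0.148). *Lfng* had -1.46 (SE 0.73, adjusted p = 0.319), and *Rbpj*, *Hes1* and *Maml2* lay between 0.09 and 0.34. The median over all genes was -0.13.

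These cells were not free of endothelial RNA. *Pecam1*, which encodes the CD31 used in the sort, stood at 2210 CPM in them against 4874 CPM in the other cells, and *Cldn5* at 23.7 against 390 CPM. Their median depth was 6950.5 counts per cell against 5229. Single cells of mixed type and wells with more than 1 cell cannot be told apart here, and no doublet caller was run.

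**Figure D4:**
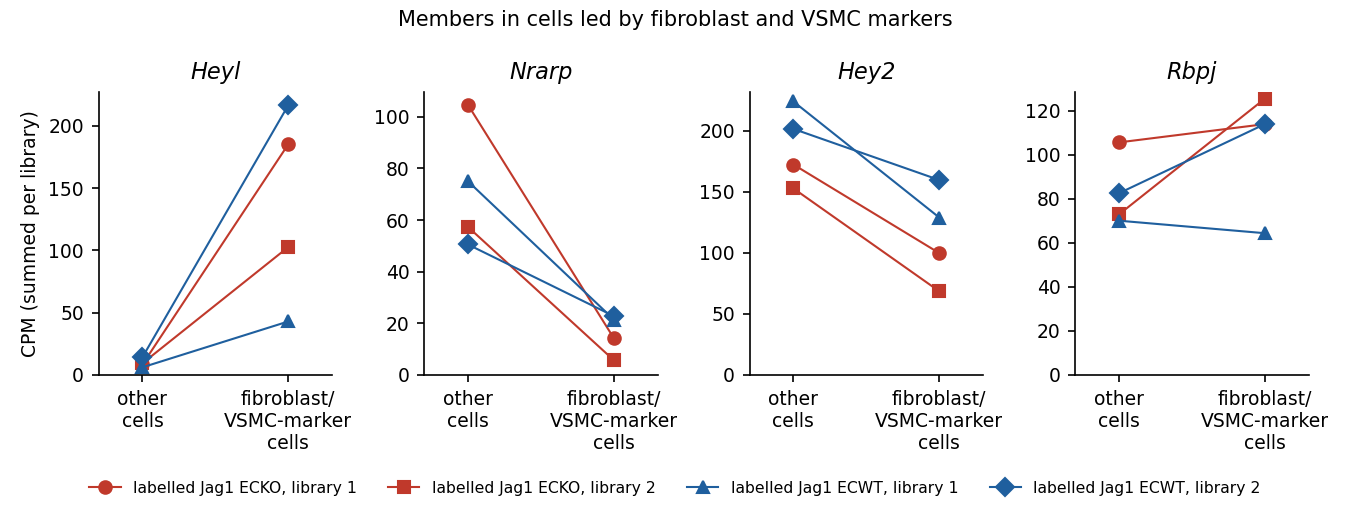
CPM per library of *Heyl*, *Nrarp*, *Hey2* and *Rbpj* in fibroblast/VSMC-marker cells and in the other cells, with a line joining both values of a library. *Heyl* is higher in the marker cells in 4 of 4 libraries (43.0 to 217 CPM), *Nrarp* and *Hey2* are lower in 4 of 4, and *Rbpj* does not move one way.

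Finally, the genes most like each member were sought by the mean within-library Spearman correlation across thinned cells, over 2950 genes and 4 libraries. For the members other than *Hey2*, the best values were 0.17 for *Lfng* (with *Ephb4*), 0.16 for *Heyl* (*Pfn1*), 0.16 for *Hey1* (*Wtap*), 0.15 for *Maml2* (*Gm2a*), 0.14 for *Nrarp* (*Tgfb1i1*), 0.14 for *Hes1* (*Trim25*) and 0.14 for *Rbpj* (*Creb3l1*). Among the members themselves, *Hes1* with *Nrarp* (0.06) was positive in 4 of 4 libraries and *Hey2* with *Nrarp* (-0.07) in 0 of 4. *Heyl* with *Hes1* (-0.03), *Hey1* (-0.02), *Lfng* (-0.04) and *Rbpj* (-0.03) was positive in 0 of 4 as well. These points are cells of the same libraries with few counts of a gene, and correlations of this size do not tell genes apart.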

How the data were processed

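Expected counts were used: the authors deposited estimated transcript counts per gene and cell (UMI numbers corrected for chance repeats), after SORT-seq and alignment to GRCm38 with STAR, whose version is not given in the sources used here. The submitters' processing notes also name Seurat 3.1. The deposited counts were not normalized. Here they were rounded per cell, cells with more than 1200 genes were kept, and counts were summed per library, or per library and group of cells with the library as a block. Sums were tested with edgeR 4.0.16 (TMM, filterByExpr, quasi-likelihood test, Benjamini-Hochberg adjustment over all genes tested) in R 4.3.3. DESeq2 1.42.0 was an alternative. Standard errors are the log2 fold change over the root of F. Ligand status and list ranks came from 1 random draw of 2000 counts per cell; thinned shares are means over all draws. Calls are at an adjusted p below 0.05.

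The members and lists were chosen with earlier results of these data known. Named genes are the members, ligands and receptors, genes of the lists that passed (at most 3 per list) or else were highest, and the genes most like each member. Immediate early, arterial, lipid-handling, endothelial, fibroblast, VSMC and leukocyte markers were summed. In simulated counts for the label comparison (9761 genes), the fit found 14.4% of genes set to a log2 change of 1 and 84.4% at a change of 2. For the *Jag1* split (7899 genes) the shares were 42.4 and 78.4%. In each simulation the dispersion was set by hand, the same for every gene, and was not estimated from these data. The shares therefore check the fit and do not give the power of this design. The gene most like *Hey2* is not reported here.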

Additional observations from a re-analysis of the deposited data

How the results depend on the processing

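In the settings run, the one call of a member between labels or by ligand was that of *Hes1* without the library labelled ECKO 1, given above. Over alternatives, 694 of 821 values were rated the same. For a log2 fold change this means that direction and side of the threshold were kept. For a count of called genes it means a number near the main one. For a level or share it means a move smaller than its SD over the libraries. No paired analysis was possible because nothing ties a library of one genotype to a library of the other, so a replicate block could not be fitted. The planned protein comparison was not run. The cause of the changes below was not tested. With 2 libraries per label and a median of 4212 to 6517.5 counts per cell, *Hey1* and *Heyl* are limited by counting.

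Counts of called genes moved as follows. DESeq2 called 2 genes between labels, 5 in the *Jag1* split, 5 in the *Dll4* split, 12 in the *Dll1* split, 18 in the immediate early, 40 in the arterial and 69 in the lipid-handling comparison. With no filter on low counts 127 were called between labels, 53 by *Dll1*, 88 by immediate early and 195 by arterial rank. Without the library block 0, 2 and 0 were called by *Jag1*, *Dll4* and *Dll1*, and 0, 7 and 5 by immediate early, arterial and lipid-handling rank. Another thinning seed gave 15, 12 and 18 for *Jag1*, *Dll4* and *Dll1*, ligand status from all counts gave 10, 3 and 20, and summing thinned counts gave 11 for each ligand. The highest 50% of cells gave 15 genes for immediate early and 42 for lipid-handling rank. Without the fibroblast/VSMC-marker cells 17 were called by *Jag1*, 11 by *Dll4* and 9 by immediate early rank. Without the 25% of cells highest for immediate early genes, an alternative added after seeing the data for the ligand splits, 1 was called between labels and 11 by *Jag1*.

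Leaving out each library in turn, the called genes ranged from 0 to 417 between labels (417 without ECKO 2 and 196 without ECKO 1), 16 to 26 by *Jag1*, 5 to 20 by *Dll4*, 17 to 35 by *Dll1*, 29 to 77 by immediate early, 64 to 101 by arterial and 43 to 119 by lipid-handling rank, and 230 to 627 in fibroblast/VSMC-marker cells. Log2 fold changes that turned sign in these fits, none of them called, ranged as follows. Between labels they ranged from -0.24 to 0.59 for *Hey1*, -0.10 to 0.71 for *Nrarp*, -0.34 to 0.37 for *Maml2* and -0.44 to 1.31 for *Heyl*. By ligand they ranged from -0.00022 to 0.36 for *Nrarp* (*Jag1*), -0.46 to 0.73 for *Lfng* (*Dll4*), and for *Dll1* -0.24 to 0.080 for *Hey2*, -0.10 to 0.21 for *Maml2* and -0.27 to 0.047 for *Rbpj*. By rank they ranged from -0.10 to 0.061 for *Maml2*, -0.16 to 1.01 for *Heyl* and -0.39 to 0.0091 for *Nrarp* (immediate early), -0.17 to 0.28 for *Maml2* (arterial), and -0.90 to 0.096 for *Heyl* and -0.069 to 0.41 for *Nrarp* (lipid-handling). In fibroblast/VSMC-marker cells they ranged from -0.49 to 0.39 for *Hes1* and -0.21 to 0.31 for *Maml2*.

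Other settings turned the sign of uncalled values. In the *Dll4* split *Hey2* went to 0.028 with DESeq2, 0.088 with total count scaling and 0.052 with DESeq2 size factors in edgeR. With ligand status from all counts, *Heyl* went to 0.71 and *Lfng* to 0.21 for *Jag1*, and for *Dll4* *Hes1* went to 0.31, *Hey2* to 0.30, *Heyl* to 0.28, *Rbpj* to 0.010 and *Lfng* to -0.27. With another thinning seed, *Heyl* went to 0.21 for *Jag1*, *Hes1* to 0.47 and *Nrarp* to -0.048 for *Dll4*, and *Hes1* to -0.10 and *Hey2* to 0.15 for *Dll1*. For *Dll1*, *Maml2* went to -0.056 with no filter on low counts and to -0.0087 without the library block. Without fibroblast/VSMC-marker cells, *Heyl* went to -0.25 between labels, and *Hey2* to 0.0099 and *Maml2* to 0.11 by immediate early rank. In the highest 50% of cells, *Hey2* went to 0.0043, *Rbpj* to -0.12 and *Maml2* to 0.12 (immediate early), and *Maml2* to -0.10 (arterial) and 0.047 (lipid-handling). *Maml2* went to -0.039 by arterial rank with no filter on low counts. With no filter on low counts *Maml2* went to -0.016 in fibroblast/VSMC-marker cells.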
